A study of Mus musculus with 20 samples.

Results

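The miR-183, miR-96 and miR-182 cluster is a set of 3 microRNAs (miRNAs, short RNAs that guide repression of messenger RNAs) that are cut from a shared primary transcript. It is best known from sensory organs: hair cells of the inner ear, photoreceptors and sensory neurons make all members, and changes in the seed of miR-96 cause hearing loss in mouse and human. Outside sensory organs, miR-182 is induced by interleukin-2 in mouse helper T cells, where it represses Foxo1. Both miR-96 and miR-182 target Foxo1 or Foxo3, transcription factors that insulin and IGF-1 signalling hold in check. The members were taken by name as mmu-miR-183-5p, mmu-miR-96-5p and mmu-miR-182-5p (miR-183-5p, miR-96-5p and miR-182-5p from here on), which makes 3 of 1915 mature miRNA names in the count table and 3 of 1191 names with at least 1 read. Each member had a single precursor row, and no other name carried identical counts. Of the 3, miR-183-5p and miR-182-5p passed the filter on low counts and miR-96-5p did not.

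The samples were serum small RNA of female mice, sequenced as 20 libraries of 4 groups with 5 each: old dwarf, old normal, young dwarf and young normal. Old mice were 21 to 22 months old and young mice 5 to 6 months. The strain label of all groups names the Ames dwarf line on a heterogeneous background. Ames dwarf mice lack growth hormone, prolactin and thyroid-stimulating hormone throughout life, and live long. The labels do not say that the libraries of a group came from separate mice, so each p-value measures the spread between these libraries, which may be technical. No sequencing batch is labelled. Library totals ran from 1343137 to 4710263 miRNA reads.

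The mature sequences below (RefSeq, GRCm38.p6, all 6 arms of the 3 hairpins matched by name) are shown because the members differ from one another in the seed. Bases 2 to 8 from the 5′ end, the seed that pairs with target RNAs, are in capitals.
mmu-miR-183-5p: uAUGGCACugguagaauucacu
mmu-miR-96-5p: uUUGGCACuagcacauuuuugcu
mmu-miR-182-5p: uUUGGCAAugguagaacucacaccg

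Counted from 1 at the 5′ end, the seeds of miR-96-5p and miR-183-5p shared 6 of 7 bases and differed by U2A, with the base of miR-96-5p given before the position. The seeds of miR-182-5p and miR-96-5p also shared 6 of 7 bases and differed by A8C, with the base of miR-182-5p given before the position. The seeds of miR-182-5p and miR-183-5p shared 5 of 7 bases (U2A and A8C). Over the whole length the order of likeness differed: miR-182-5p was identical to miR-183-5p at 18 of 22 positions compared from the 5′ end, to miR-96-5p at 12 of 23, and miR-96-5p to miR-183-5p at 13 of 22. Among 1679 mature miRNA names in the RefSeq table, the seeds of miR-183-5p and miR-182-5p were found in no other name. That of miR-96-5p was also found in miR-1271-5p, a name that the count table does not list. Over bases 2 to 7 alone, miR-182-5p, miR-96-5p and miR-1271-5p were the same.

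All 3 hairpins lie on the minus strand of chromosome 6 (GRCm38), so transcription runs through Mir183, then Mir96, then Mir182. Mir183 spans chr6:30169668-30169737, Mir96 chr6:30169446-30169551 and Mir182 chr6:30165918-30165992. A stretch of 116 bases separates Mir183 from Mir96, whereas 3453 bases separate Mir96 from Mir182. The locus lies between the protein-coding genes Nrf1, 12459 bases from Mir182, and Ube2h, 41551 bases from Mir183. RefSeq places the long non-coding RNA gene Mirc35hg across all 3 hairpins, from 30158640 to 30174125. GENCODE M21 lists the long intergenic RNA Rncr4, a retinal non-coding RNA, on the opposite strand, 3155 bases from Mir183.

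**Figure D1:**
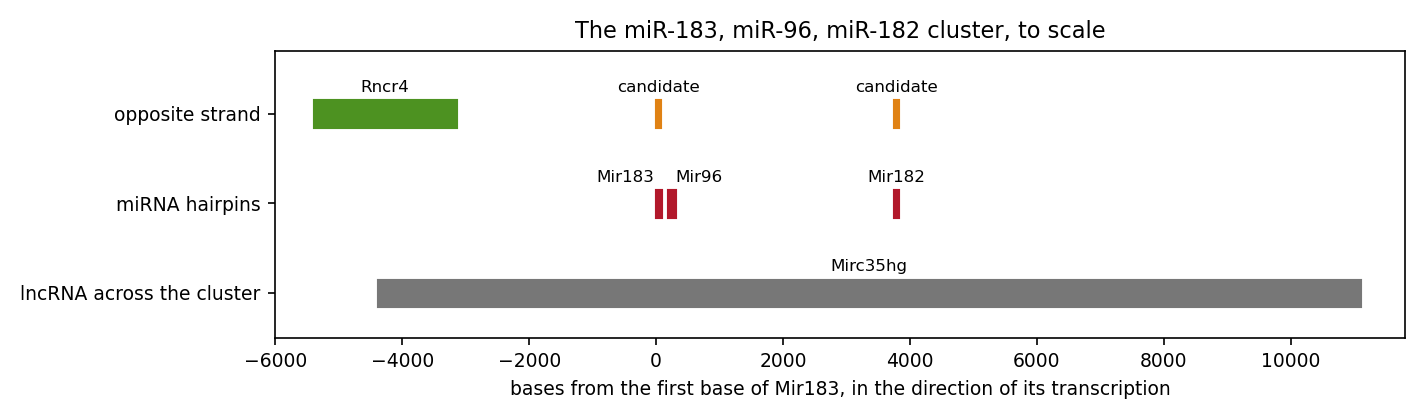
Map of the cluster, with distance in bases from the 5′ end of the Mir183 hairpin on the x axis and positive values in the direction of transcription. Hairpins are drawn on the minus strand between Mirc35hg and the opposite strand, which holds Rncr4 and the candidate hairpins of the authors' pooled report; Mir183 and Mir96 lie 116 bases apart and Mir182 a further 3453 bases away.

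miR-182-5p carried nearly all of the cluster's reads. Summed over the 20 libraries it had 16166 of the 17516 reads of the 3 members, or 92.3% (95% exact Clopper-Pearson interval 91.9 to 92.7%). miR-183-5p had 1324 reads, or 7.56% (7.17 to 7.96%). miR-96-5p had 26 reads, or 0.148% (0.0970 to 0.217%). These intervals cover counting error only, and reads are not molecules, since ligation in small RNA library preparation favours some sequences over others. Levels are given as CPM, the reads of a miRNA as a share of the library total on the usual fixed scale, after correction with TMM factors, which adjust for differences in composition between libraries. Among the 360 miRNAs that passed the filter, miR-182-5p ranked between place 37 and place 107 of a library (median 90) and miR-183-5p between place 101 and place 239 (median 209).

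miR-183-5p, the member at the 5′ end of the cluster, was found in all 20 libraries. Its level was 31.8, 11.8, 19.2, 25.2 and 13.4 CPM in old dwarf serum, against 168, 25.1, 15.1, 20.2 and 16.5 CPM in old normal serum. It was 15.2, 16.7, 18.1, 17.6 and 20.7 CPM in young dwarf serum, against 17.0, 102.6, 13.5, 16.9 and 11.6 CPM in young normal serum. In each normal group 1 library stood far above the rest, the old normal library 1 and the young normal library 2, and the other libraries of all groups overlapped. The median was 19.2 CPM in old dwarf serum and 20.2 CPM in old normal serum, and for the young groups 17.6 CPM (dwarf) and 16.9 CPM (normal). By median, old normal serum came highest and old dwarf, young dwarf and young normal serum followed, and no neighbours in that order differed beyond their spread.

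miR-182-5p, the member at the 3′ end, was highest in the same 2 libraries. Its level was 358, 209.3, 282.3, 407.3 and 260.9 CPM in old dwarf serum, against 1814, 239.1, 205.1, 227.2 and 189.8 CPM in old normal serum. It was 220.1, 243.6, 303.1, 376.8 and 311.7 CPM in young dwarf serum, against 158.7, 904.7, 161.9, 153.4 and 193.2 CPM in young normal serum. The old normal library 1 and the young normal library 2 were again the highest of their groups, and the highest of all 20. Apart from the young normal library 2, every young normal value lay below every young dwarf value. The median was 282.3 CPM in old dwarf serum and 227.2 CPM in old normal serum, and for the young groups 303.1 CPM (dwarf) and 161.9 CPM (normal). By median, young dwarf serum came highest and old dwarf, old normal and young normal serum followed, and with all 5 libraries of each group every pair of neighbours overlapped.

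miR-96-5p, the middle member, was close to the limit of detection. It had 0, 2, 0, 1 and 0 reads in old dwarf serum, against 4, 0, 2, 1 and 1 reads in old normal serum. It had 0, 0, 0, 0 and 1 reads in young dwarf serum, against 2, 8, 1, 0 and 3 reads in young normal serum. The highest value of each normal group fell again in the old normal library 1 (4 reads) and the young normal library 2 (8 reads). In the 9 libraries without a read, a count of 0 allows up to 3 reads, which corresponds to 0.844 to 2.69 CPM across the 20 libraries. Besides those 2 libraries, the young normal library 5 was the single other library to reach 3 reads, so differences in miR-96-5p were mostly not detectable at this depth.

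**Figure D2:**
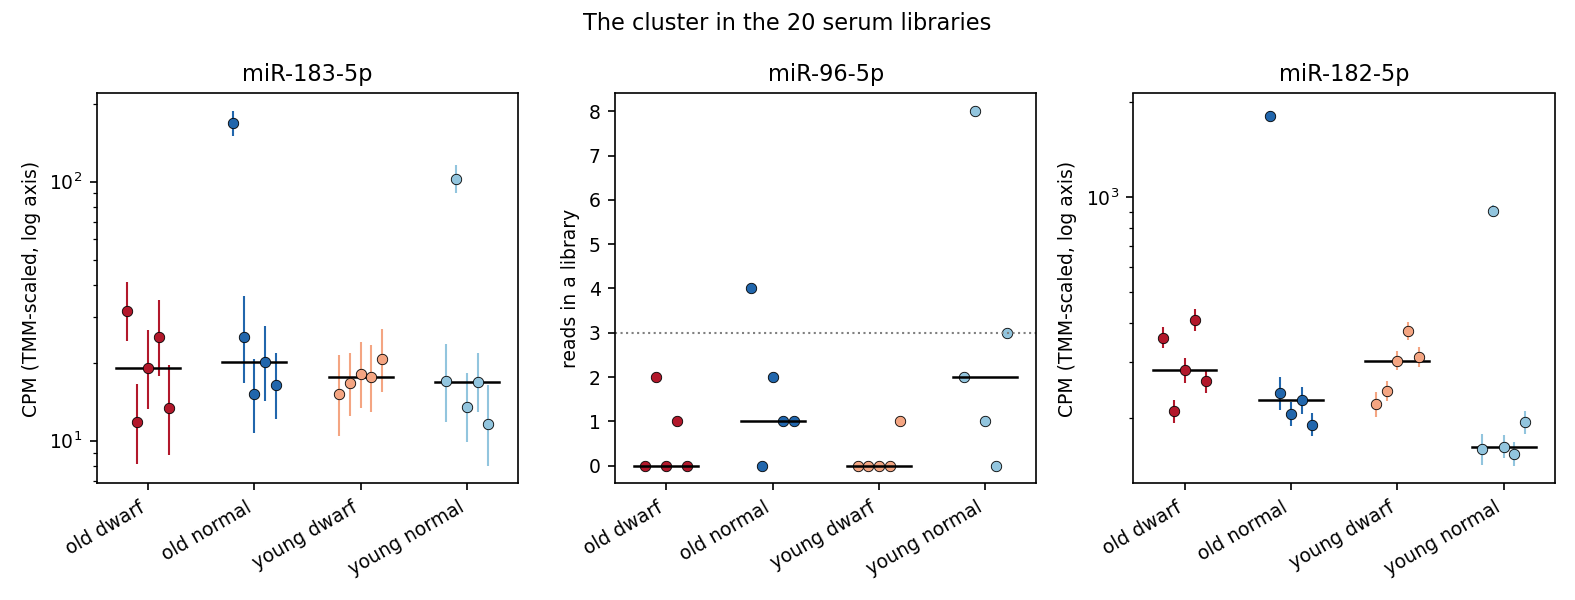
Level of each member by library in the 4 groups, as CPM on a log axis for miR-183-5p and miR-182-5p (bars are 95% exact counting intervals) and as reads for miR-96-5p, with the median of a group as a horizontal line and the floor of 3 reads dotted. The old normal library 1 (168 and 1814 CPM) and the young normal library 2 (102.6 and 904.7 CPM) stand above all other libraries.

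Each of these 2 libraries, picked out after the values were seen, was set beside the other 4 libraries of its own group. In the old normal library 1, miR-183-5p was 8.75-fold above the mean of the others (168 CPM, counting interval 150.4 to 187, against 19.2 ± 4.46 CPM, SD, n = 4). miR-182-5p was 8.42-fold above it (1814 CPM, interval 1755 to 1874, against 215.3 ± 22.1 CPM). In the young normal library 2, miR-183-5p was 6.95-fold above the mean of the others (102.6 CPM, interval 90.1 to 116.3, against 14.8 ± 2.63 CPM), and miR-182-5p was 5.42-fold above it (904.7 CPM, interval 867 to 943.7, against 166.8 ± 17.96 CPM). These gaps exceed the counting error by far and rest on 245 to 3607 reads. For miR-96-5p the same ratios were 4.78 and 5.73, from 4 and 8 reads.

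The cluster stood out among all miRNAs in this. By the difference in log2 CPM from the mean of the other libraries of the group, miR-183-5p held place 5 of 360 in the old normal library 1 (3.10) and place 1 of 360 in the young normal library 2 (2.74). miR-182-5p held place 6 (3.08) and place 3 (2.44). Over 4-fold excess was seen for 14 names in the old normal library 1 and for 10 names in the young normal library 2, and miR-183-5p and miR-182-5p were the 2 names that showed it in both. Ranked by the lower of the 2 excesses, the next name was miR-193a-3p at 1.203. Of the 10 names in the young normal library 2, 4 were muscle miRNAs: miR-133b-3p (2.50), miR-133a-5p (2.25), miR-499-5p (2.08) and miR-208a-3p (2.06). All of these lay below the mean of the rest of the group in the old normal library 1. The others besides the cluster were miR-541-5p (2.27), miR-136-5p (2.18), miR-127-3p (2.18) and miR-136-3p (2.06). In the old normal library 1 these stood at -0.20, 0.41, -0.37 and -0.79. These places describe the 2 libraries, which were chosen for the members' levels, and carry no test.

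**Figure D3:**
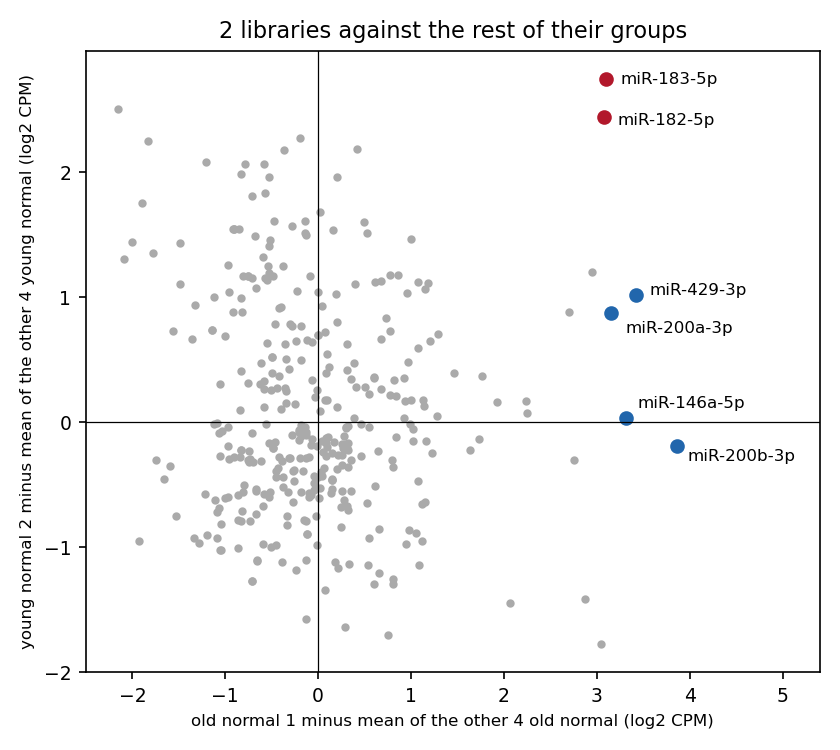
Difference in log2 CPM of each of the 360 tested miRNAs between the old normal library 1 and the mean of the other 4 old normal libraries (x axis) and between the young normal library 2 and the mean of the other 4 young normal libraries (y axis), with the cluster in red and miR-429-3p, miR-200a-3p, miR-146a-5p and miR-200b-3p in blue. miR-183-5p (3.10 and 2.74) and miR-182-5p (3.08 and 2.44) lie at the upper right apart from all other points, whereas miR-200b-3p lies far to the right with -0.19 on the y axis.

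In total reads, detected names and red-cell index these 2 libraries lay inside the range of the other 18. Their totals were 2462719 reads in the old normal library 1 and 1653992 reads in the young normal library 2. They held 648 and 643 detected names, against 581 to 717 over all libraries. The red-cell index, the log2 ratio of miR-451a (a red-cell miRNA) to miR-23a-3p (a miRNA little affected by lysis of red cells), was 4.83 and 5.19, against 3.13 to 6.29 over all libraries. Within its own group the old normal library 1 had the highest value (next 4.71). Old dwarf libraries ran from 4.90 to 6.09 and old normal ones from 3.13 to 4.83, without overlap. Young dwarf (5.08 to 6.03) and young normal libraries (4.66 to 6.29) overlapped. These group differences in the index were not tested. Across the 20 libraries its Pearson r was -0.13 with miR-183-5p, -0.09 with miR-96-5p and 0.04 with miR-182-5p. The adjusted permutation p values were 0.809, 0.846 and 0.856. Spearman rho was -0.12, -0.13 and 0.17 (adjusted permutation p 0.919 for each).

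With all 20 libraries no difference between groups passed the test for either tested member. The test was the quasi-likelihood test of edgeR with Benjamini-Hochberg adjustment over the 360 miRNAs of a comparison, called under an adjusted p of 0.05. Old dwarf against old normal serum, where 26.4% of all tested miRNAs were called (16.1% higher and 10.3% lower), asks whether the genotype shows in old age. miR-183-5p averaged 20.3 ± 8.31 CPM in old dwarf libraries and 49.0 ± 66.6 CPM in old normal serum (SD, n = 5 each), a log2 fold change of -1.28 ± 0.68 (SE, edgeR adjusted p = 0.149). miR-182-5p averaged 303.6 ± 78.9 CPM in old dwarf libraries and 535 ± 715 CPM in old normal serum, a log2 fold change of -0.82 ± 0.61 (edgeR adjusted p = 0.307). The SD of the old normal group exceeded its mean for both members, and its medians (20.2 and 227.2 CPM) lay far below its means.

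Young dwarf against young normal serum, where 0% of all tested miRNAs were called, gave the same picture. edgeR called 0 of 360 here, with 28 at an unadjusted p under 0.05, and DESeq2, an alternative count test, called 6. miR-183-5p averaged 17.6 ± 2.02 CPM in young dwarf libraries and 32.3 ± 39.3 CPM in young normal serum (log2 fold change -0.87 ± 0.67, edgeR adjusted p = 0.713). miR-182-5p averaged 291.1 ± 61.7 CPM in young dwarf libraries and 314.4 ± 330.4 CPM in young normal serum (log2 fold change -0.11 ± 0.60, edgeR adjusted p = 0.981).

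Age was compared within each genotype. In old against young normal serum 15.6% of all tested miRNAs were called (5% higher). The log2 fold change there was 0.60 ± 0.66 for miR-183-5p (edgeR adjusted p = 0.496) and 0.77 ± 0.61 for miR-182-5p (edgeR adjusted p = 0.340). Both values turned on single libraries: without the old normal library 1 they were -0.76 and -0.55, and without the young normal library 2 they were 1.71 and 1.66 (edgeR adjusted p = 0.0730 and 0.0565). Scaled by library totals alone, miR-183-5p was at -0.054 where the median of all tested miRNAs was -0.42.

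In old against young dwarf serum 0.556% were called, and the log2 fold change was 0.19 ± 0.68 for miR-183-5p and 0.06 ± 0.60 for miR-182-5p (edgeR adjusted p = 0.997 for both). The difference of the age effects, dwarf minus normal, for which 0.556% were called, was -0.41 ± 0.95 for miR-183-5p (edgeR adjusted p = 0.8292) and -0.71 ± 0.85 for miR-182-5p (edgeR adjusted p = 0.669). In none of the 5 comparisons did either member reach an unadjusted p under 0.05 in edgeR, a level reached by 45.3% of tested miRNAs in old dwarf against old normal, 7.78% in young dwarf against young normal, 38.3% in old against young normal and 3.89% in old against young dwarf serum, and by 15.8% for the difference. DESeq2 did not call miR-183-5p either, and gave no p for miR-182-5p, which it therefore could not call. The groups of each pairwise comparison overlapped for both members, whereas groups did not overlap for 12.5%, 1.94%, 7.78% and 1.67% of tested miRNAs in the same order. Several comparisons share a group of libraries, so their values are not independent. In a bulk serum sample, release by fewer cells and less RNA per cell cannot be told apart.

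Without the old normal library 1 and the young normal library 2, a choice made after the values were seen, the direction of both genotype differences turned for both members. miR-182-5p then averaged 303.6 ± 78.9 CPM in old dwarf (n = 5) and 215.3 ± 22.1 CPM in old normal serum (n = 4), a log2 fold change of 0.50 ± 0.21 (edgeR adjusted p = 0.0988), where 16.9% of 367 tested miRNAs were called. In the young groups it averaged 291.1 ± 61.7 CPM in dwarf (n = 5) and 166.8 ± 17.96 CPM in normal serum (n = 4), a log2 fold change of 0.80 ± 0.22 (edgeR adjusted p = 0.202), where 0% were called. All 5 young dwarf values (220.1 to 376.8 CPM) then lay above all 4 young normal values (153.4 to 193.2 CPM), and 3.33% of the 360 miRNAs had groups that did not overlap in that comparison. Both differences had an unadjusted edgeR p under 0.05, as did 38.1% of miRNAs in the old groups and 9.81% in the young groups, and neither passed the test after adjustment.

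miR-183-5p without these 2 libraries showed no difference that passed the test in the same fits. Its log2 fold change was 0.09 ± 0.29 in old dwarf against old normal serum (20.3 ± 8.31 against 19.2 ± 4.46 CPM, edgeR adjusted p = 0.827). It was 0.25 ± 0.29 in young dwarf against young normal serum (17.6 ± 2.02 against 14.8 ± 2.63 CPM, edgeR adjusted p = 0.672). Old against young normal serum, where 0% were then called (0 of 367, with 91 at an unadjusted p under 0.05), gave 0.36 ± 0.30 for miR-183-5p (edgeR adjusted p = 0.434) and 0.36 ± 0.22 for miR-182-5p (edgeR adjusted p = 0.302). The standard errors were less than those with all libraries for every comparison of both members.

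**Figure D4:**
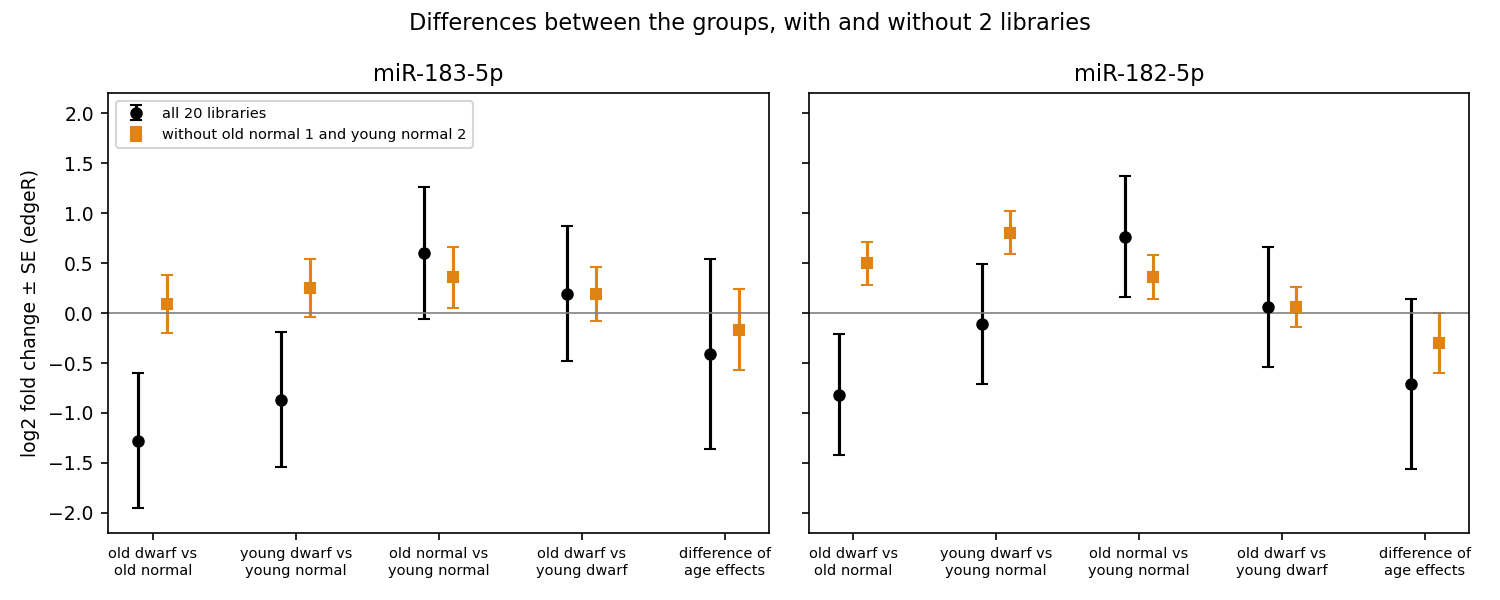
Log2 fold change with its standard error from edgeR for miR-183-5p and miR-182-5p in 4 pairwise comparisons and in the difference of the age effects, with all 20 libraries (black) and without the old normal library 1 and the young normal library 2 (orange). Both genotype differences lie below 0 with all libraries (-1.28, -0.87, -0.82 and -0.11) and above 0 without the 2 libraries (0.09, 0.25, 0.50 and 0.80).

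miR-96-5p failed the filter and had no place among the tested miRNAs. In a fit that kept every name with at least 1 read, its log2 fold change in young dwarf against young normal serum was -3.13 ± 1.10 (edgeR adjusted p = 0.512), from 1 read in 5 young dwarf libraries and 14 reads in 5 young normal libraries. In old dwarf against old normal serum it was -1.19 ± 1.05 (edgeR adjusted p = 0.499), from 3 reads in old dwarf and 8 reads in old normal libraries. Neither passed the test.

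Since a ratio of members within a library does not depend on how libraries are scaled, the reads of miR-182-5p per read of miR-183-5p were compared as well. The ratio was 11.3, 17.7, 14.7, 16.1 and 19.4 in old dwarf serum, against 10.8, 9.54, 13.6, 11.3 and 11.5 in old normal serum. It was 14.5, 14.6, 16.7, 21.4 and 15.1 in young dwarf serum, against 9.34, 8.82, 12.0, 9.08 and 16.6 in young normal serum. Dwarf libraries were mostly higher than normal libraries at both ages, with an overlap of 1 or a few libraries. The 2 libraries with the high levels of both members had ratios of 10.8 (old normal 1) and 8.82 (young normal 2), close to those of their groups.

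The mean ratio was 15.9 ± 3.11 in old dwarf and 11.3 ± 1.47 in old normal serum (SD, n = 5 each). On the log2 scale, with 0.5 added to each count, the difference was 0.46, or 1.38-fold, with the old dwarf library higher in 23 of 25 pairs (2-sided exact permutation p = 0.0238, adjusted over 12 ratio tests 0.127). In the young groups the mean was 16.5 ± 2.90 in dwarf and 11.2 ± 3.29 in normal serum, and the log2 difference was 0.59, or 1.502-fold, with the young dwarf library higher in 22 of 25 pairs (exact permutation p = 0.0317, adjusted 0.127). With 5 against 5 libraries the smallest p this test allows is 0.00794. Neither difference passed after adjustment. Without the 2 libraries the log2 differences were 0.45 (exact permutation p = 0.0476, adjusted 0.222) and 0.52 (exact permutation p = 0.0556, adjusted 0.222). The ratios of those 2 libraries were close to those of their groups, so leaving them out could change these differences little.

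The ratio did not shift with age beyond the spread. It differed by 0.06 on the log2 scale between old and young normal serum (exact permutation p = 0.786, adjusted 0.786) and by -0.07 between old and young dwarf serum (exact permutation p = 0.730, adjusted 0.786). Counting error contributed an SD of 0.0825 to 0.287 to the log2 ratio of a library, against an SD between libraries of 0.30 for old dwarf, 0.18 for old normal, 0.24 for young dwarf and 0.38 for young normal serum. The ratio of miR-96-5p to miR-182-5p was lower in young dwarf than in young normal serum by a log2 difference of -2.05 (exact permutation p = 0.0238, adjusted 0.127), a value set largely by libraries without a read of miR-96-5p. With 1 in place of 0.5 added to each count it was -1.56, and with 0.1 it was -3.34.

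**Figure D5:**
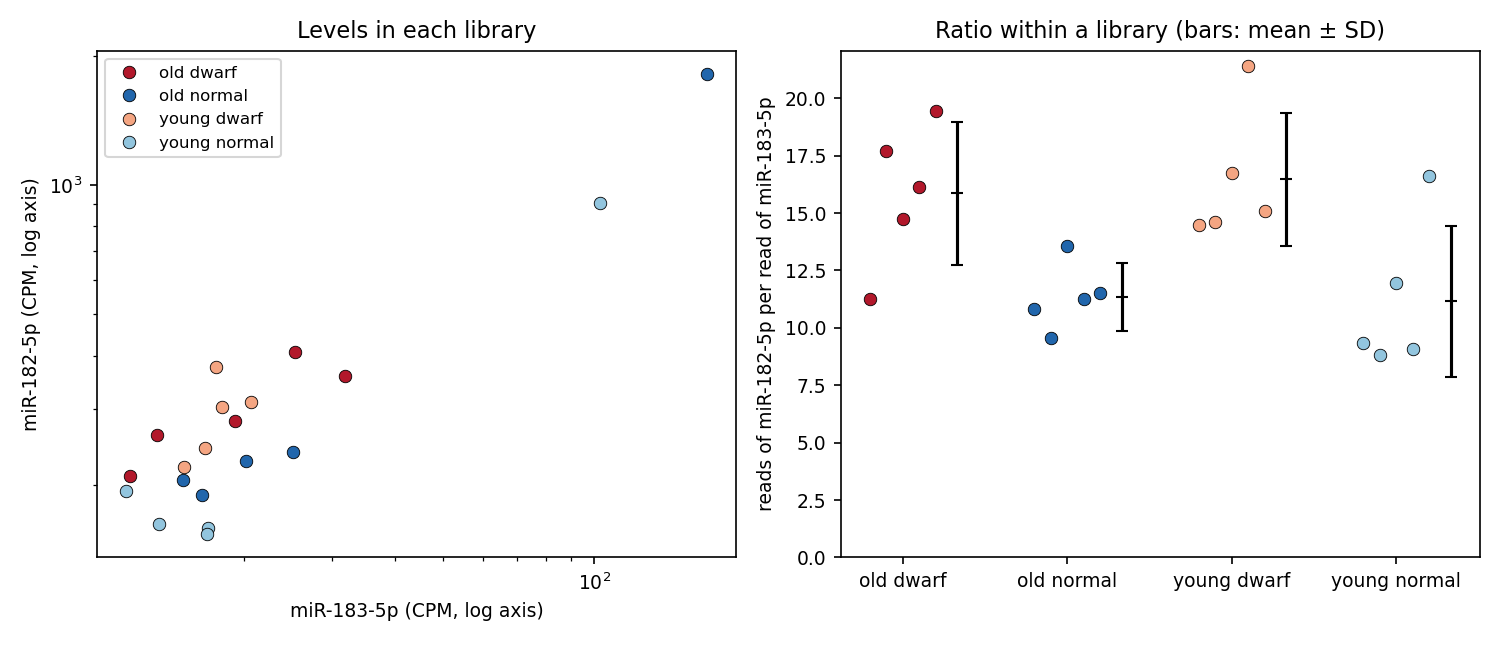
Left, CPM of miR-182-5p against CPM of miR-183-5p on log axes, and right, reads of miR-182-5p per read of miR-183-5p by group with mean ± SD bars; each point is 1 of the 20 libraries. The old normal library 1 (168 and 1814 CPM) and the young normal library 2 (102.6 and 904.7 CPM) lie at the upper right of the left panel, and the ratios of old dwarf (mean 15.9) and young dwarf (mean 16.5) libraries lie mostly above those of old normal (mean 11.3) and young normal (mean 11.2) libraries.

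miR-183-5p and miR-182-5p varied together across libraries. Over the 20 libraries their log2 CPM had a Pearson r of 0.92 (permutation p = 2e-05, adjusted over 6 relations 0.00012). The Spearman rho was 0.71 (permutation p = 0.00055, adjusted 0.0033). After group means were subtracted r was 0.96. Without the old normal library 1 and the young normal library 2, which were also the 2 farthest from the median of miR-183-5p, r was 0.60 (permutation p = 0.00822, n = 18) and rho 0.61, and r was 0.82 within groups. With libraries scaled by their totals alone, r over the 20 libraries was 0.94.

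The relations of miR-96-5p were limited by its low counts. Its Pearson r was 0.61 with miR-183-5p (permutation p = 0.00925, adjusted 0.0277) and 0.53 with miR-182-5p (permutation p = 0.0191, adjusted 0.0381). The Spearman rho was 0.04 and 0.01 (adjusted permutation p = 0.976 for both), and r without the 2 libraries was -0.31 and -0.32, or 0.04 and 0.29 within groups. Outside those 2 libraries it had 0 to 3 reads in a library, too few to show whether it varies with the other members. Both relations of miR-96-5p therefore rest on the old normal library 1 and the young normal library 2.

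The tested miRNAs whose pattern was most like the cluster's, by Pearson r of log2 CPM with the mean of the 3 members over the 20 libraries, were miR-200a-3p (0.81), miR-429-3p (0.78), miR-92a-1-5p (0.67), miR-200b-3p (0.64) and miR-146a-5p (0.59). The same 5 names came highest after group means were subtracted. miR-200b, miR-200a and miR-429 are cut from another shared transcript and are typical of epithelia, miR-146a dampens NF-κB signalling, and miR-92a-1-5p is an opposite arm from the miR-17 to miR-92 cluster. Over the 18 libraries without the old normal library 1 and the young normal library 2, r was 0.17 for miR-200a-3p, 0.18 for miR-429-3p, 0.42 for miR-92a-1-5p, 0.27 for miR-200b-3p and 0.16 for miR-146a-5p. With the mean of miR-183-5p and miR-182-5p alone, r over the 20 libraries was 0.84, 0.82, 0.72, 0.69 and 0.62 in the same order. Over the 18 libraries it was 0.30, 0.34, 0.50, 0.36 and 0.14. By either score the likeness weakened without the 2 libraries, least for miR-92a-1-5p.

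The 2 libraries differed in these miRNAs. miR-200a-3p was at 628 CPM in the old normal library 1, against 40.5 to 92.3 CPM in the other old normal libraries. miR-429-3p was at 1347 CPM there, against 75.9 to 177.6 CPM, and miR-146a-5p at 1896 CPM, against 129.4 to 266.7 CPM. In the young normal library 2, miR-200a-3p was at 161.2 CPM, against 70.8 to 116.0 CPM in the other young normal libraries, and miR-429-3p at 352.9 CPM, against 134 to 223.6 CPM. miR-200b-3p (12.1 CPM against 8.16 to 22.2 CPM) and miR-146a-5p (86.7 CPM against 73.9 to 96.3 CPM) lay within the range of the other young normal libraries. miR-92a-1-5p was at 24.6 CPM in the old normal library 1, against 1.03 to 7.16 CPM in the other old normal libraries. In the young normal library 2 it was at 3.77 CPM, against 0.844 to 3.08 CPM. So miR-200a-3p, miR-429-3p and miR-92a-1-5p lay above the rest of the group in both libraries, as miR-183-5p and miR-182-5p did. Their excess in the young normal library 2 was smaller than that of the cluster. miR-200b-3p and miR-146a-5p were high in the old normal library 1 alone.

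Lists of miRNAs typical of cells that could feed serum were set beside the cluster. All 7 epithelial miRNAs were tested, and their summed level ran from 571 to 868 CPM in old dwarf libraries, 451 to 2513 CPM in old normal, 714 to 985 CPM in young dwarf and 780 to 1387 CPM in young normal libraries. The highest sums of all 20 libraries were those of the old normal library 1 (2513 CPM, next old normal 801 CPM) and the young normal library 2 (1387 CPM, next young normal 1063 CPM). None of the 7 was at 0 in these libraries, but the list did not move as a whole: in the old normal library 1, miR-203-3p was at 68.9 CPM, against 88.6 to 150 CPM in the other old normal libraries, and miR-205-5p at 99.6 CPM, against 97.8 to 231 CPM. In the young normal library 2, miR-203-3p was at 319 CPM, against 117.3 to 196.4 CPM in the other young normal libraries, and miR-200c-3p at 3.35 CPM, against 5.99 to 11.7 CPM. The part of epithelial miRNAs in the levels of the cluster was not tested. In old dwarf relative to old normal libraries, where 16.1% of all tested miRNAs rose and 10.3% fell, 0 of the 7 rose and 1 fell. It was miR-205-5p (74.0 ± 22.0 against 170.0 ± 65.9 CPM, log2 fold change -1.198 ± 0.39, edgeR adjusted p = 0.0299). The list's median log2 fold change was -1.04 with all libraries and 0.42 without the 2 libraries, against -0.06 and -0.02 over all tested miRNAs.

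Lymphocyte miRNAs are of interest since miR-182 is induced in T cells. Of the 7 on the list, all tested, 0 rose and 6 fell in old dwarf libraries relative to old normal ones, where 16.1% of all tested miRNAs rose and 10.3% fell, and the median log2 fold change was -1.49. Without the 2 libraries 3 fell (median -1.05), where 5.18% of all tested miRNAs fell. miR-150-5p, typical of mature lymphocytes, was at 936 ± 315.3 CPM in old dwarf libraries and 2904 ± 1561 CPM in old normal serum (log2 fold change -1.63 ± 0.38, edgeR adjusted p = 0.00601). miR-342-3p was at 53.9 ± 17.8 CPM in old dwarf libraries and 151.2 ± 68.7 CPM in old normal serum (log2 fold change -1.49 ± 0.32, edgeR adjusted p = 0.00479). In old against young normal serum 6 of the 7 rose, where 5% of all tested miRNAs rose. Without the 2 libraries 0 of all 367 tested miRNAs were called in that comparison, those of the list included. The summed level of the list ran from 2763 to 3867 CPM in old dwarf libraries, 3793 to 11978 CPM in old normal, 2366 to 4165 CPM in young dwarf and 2719 to 4535 CPM in young normal libraries. It was the highest of all in the old normal library 1 (11978 CPM, next 9108 CPM) and the lowest of its group in the young normal library 2 (2719 CPM). Its part in the levels of miR-182-5p was not tested.

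Red-cell and myeloid miRNAs were counted in the same way. The red-cell index given above was higher in every old dwarf library than in every old normal one. By median the summed level of the red-cell list lay the other way. It was 370182 CPM in old dwarf (320239 to 622253 CPM) and 508493 CPM in old normal libraries (437542 to 628925 CPM). The ranges of the sum overlapped, and its difference was not tested. Of 8 red-cell miRNAs, all tested, 0 rose and 0 fell in old dwarf libraries relative to old normal ones, with a median log2 fold change of 0.08, where 16.1% of all tested miRNAs rose and 10.3% fell. miR-451a was at 30615 ± 6767 CPM in old dwarf libraries and 18409 ± 5950 CPM in old normal serum (log2 fold change 0.73 ± 0.28, edgeR adjusted p = 0.0550). Of 6 myeloid and platelet miRNAs 0 rose and 2 fell, with a median of -0.68. They were miR-191-5p (18688 ± 10017 CPM in old dwarf libraries and 40193 ± 8357 CPM in old normal serum, log2 fold change -1.10 ± 0.37, edgeR adjusted p = 0.0337) and miR-223-5p (log2 fold change -1.08 ± 0.39, edgeR adjusted p = 0.0459).

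A list of 8 muscle miRNAs, added after the values were seen, moved in opposite directions in the 2 libraries. Its summed level ran from 2020 to 5773 CPM in old dwarf libraries, 322 to 4084 CPM in old normal, 1815 to 5561 CPM in young dwarf and 1074 to 7834 CPM in young normal libraries. The old normal library 1 had the lowest sum of all 20 (322 CPM) and the young normal library 2 the highest (7834 CPM). Of the 8, 7 were tested. In old dwarf libraries relative to old normal ones, where 26.4% of all tested miRNAs were called, 0 of the 7 were called. Their median log2 fold change was 1.83. The smallest p values were those of miR-133a-5p (log2 fold change 2.21 ± 0.85, edgeR adjusted p = 0.0596) and miR-133b-3p (2.17 ± 0.85, edgeR adjusted p = 0.0607). miR-206-3p, a skeletal muscle miRNA, had 3 reads in all. Their part in the levels of the cluster was not tested.

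miRNAs of sensory, neural and endocrine cells, a list wider than the sensory organs for which the cluster is best known, ranged from absent to abundant. Of 11 on the list 10 had a read and 4 were tested. In old dwarf libraries relative to old normal ones 0 of the 4 were called, where 26.4% of all tested miRNAs were, and in old against young normal serum also 0, where 15.6% were. With 4 miRNAs tested, these counts tell little. The neuronal miR-124-3p had 8 reads in all 20 libraries together, miR-9-5p had 43, miR-7a-5p, of endocrine and neural cells, had 11, and miR-7b-5p was at 0. miR-128-3p had 234395 reads, miR-375-3p, of pancreatic islets and other endocrine cells, had 45577, and miR-132-3p had 3370. Over the 20 libraries most reads of the list were those of miR-128-3p, so its summed level does not describe the list as a whole. The sum ran from 999 to 10205 CPM in old dwarf and 6989 to 18038 CPM in old normal libraries. In young dwarf libraries the sum ran from 832 to 9424 CPM and in young normal ones from 1429 to 13231 CPM. It was 6989 CPM in the old normal library 1, the lowest of its group, and 1982 CPM in the young normal library 2. miR-204-5p, of eye and other tissues, was at 5.88 ± 1.92 CPM in old dwarf libraries and 2.52 ± 1.30 CPM in old normal ones (log2 fold change 1.15 ± 0.46, edgeR adjusted p = 0.0659). miR-128-3p was at 3380 ± 3649 CPM in old dwarf libraries and 10107 ± 3684 CPM in old normal ones (log2 fold change -1.58 ± 0.80, edgeR adjusted p = 0.129). Their part in the levels of the cluster was not tested.

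Of 8 other miRNAs reported to target Foxo1 or Foxo3, 6 were tested. In old dwarf libraries relative to old normal ones, 16.1% of all tested miRNAs rose and 10.3% fell. Of these 6, 0 rose and 2 fell (median log2 fold change -0.44). They were miR-155-5p (8.82 ± 3.09 CPM in old dwarf libraries and 22.5 ± 16.5 CPM in old normal serum, log2 fold change -1.35 ± 0.40, edgeR adjusted p = 0.0196) and miR-27a-3p (2018 ± 558.7 CPM in old dwarf libraries and 3030 ± 538.8 CPM in old normal serum, log2 fold change -0.59 ± 0.20, edgeR adjusted p = 0.0418). miR-155-5p is also on the lymphocyte list. In young dwarf against young normal serum, where 0% of all tested miRNAs were called, the lists had no call either.

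The 5p arm was the main product of every hairpin. It made up 97.9% of the reads of miR-183 (1324 of 1352, exact interval 97.0 to 98.6%) and 96.3% of those of miR-96 (26 of 27, 81.0 to 99.9%). For miR-182 it had 16166 of 16167 reads. miR-183-3p, the only opposite arm with more than 1 read, is printed here with its seed in capitals.
mmu-miR-183-3p: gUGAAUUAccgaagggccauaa

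miR-183-3p had 28 reads, of which 17 lay in old normal libraries (8, 0, 4, 3 and 2). There were 0, 0, 1, 0 and 0 reads in old dwarf, 1, 2, 0, 1 and 0 in young dwarf, and 0, 3, 1, 2 and 0 in young normal libraries. The share of the 3p arm in the reads of miR-183 was 0.524% in old dwarf (exact interval 0.0133 to 2.88%) and 3.39% in old normal serum (1.98 to 5.37%). It was 1.69% in young dwarf (0.464 to 4.28%) and 1.42% in young normal serum (0.522 to 3.06%). The intervals of old dwarf and old normal serum overlap and cover counting error only, and 8 of the 17 old normal reads came from library 1. The difference was not tested.

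The authors' deposited miRDeep2 report, which pools all samples, lists the 3 known hairpins of the cluster. Its score was 8241.1 for Mir182 with 16156 reads, 693.4 for Mir183 with 1352 reads and 5.4 for Mir96 with 27 reads. It also lists hairpin candidates on the plus strand opposite Mir182 (chr6:30165924-30165988, score 5.2) and opposite Mir183 (chr6:30169674-30169733, score 4.9), with 14 reads each. Their mature sequences in that report are shown because they come from the other strand of known hairpins. Both equal the complement of those hairpins at 22 of 22 bases, which follows from their position. No base is marked in capitals.
opposite Mir182: guuggcaagucuagaaccaccg
opposite Mir183: auggcccuucgguaauucacug

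These reads amount to 0.0867% of those of Mir182 and 1.04% of those of Mir183 on the other strand. Of 536 candidates without a known miRNA in the report, 11 lie opposite an annotated miRNA gene. Both candidates lie outside Rncr4. The report has no values per sample, so the candidates cannot be compared between groups.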

How the data were processed

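The authors deposited a table of whole-number read counts and, beside them, RPM values (reads scaled to a column's sum); per the file headers, its columns are those the miRDeep2 quantifier writes. Bowtie 0.12.8, bedtools, edgeR and GRCm38 (mm10) are named, without their roles, in the submitters' processing notes. The deposited miRDeep2 report gives a score and pooled read counts per hairpin. RPM values were not used in tests. No sample column of the count table was left unassigned (0 columns), and 0 pairs of libraries were identical.

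Of 2241 rows, the row with the highest total was kept for each name. Counts were tested with edgeR 4.0.16 (limma 3.58.1, R 4.3.3) by quasi-likelihood over all 20 libraries with a coefficient per group, TMM factors and filterByExpr (minimum count 10), which left 360 miRNAs. The common biological coefficient of variation was 47.5%. The SE is |log2 fold change| divided by √F. DESeq2 1.42.0 was an alternative. log2 CPM used a prior count of 2. Ratios were compared by exact permutation over 252 splits, relations with 100000 resamples in scipy 1.17.1. The red-cell index adds 1 to each count.

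Members, lists and rules were chosen with earlier results of these data known. Named were the members, their opposite arms, the 5 most similar miRNAs over 20 libraries and after subtracting group means, and up to 2 list members by smallest p in old dwarf against old normal serum; other names were picked after their values were seen. Sequences are RefSeq's.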

Additional observations from a re-analysis of the deposited data

Results flagged for a closer look

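Examined were 20 groups of 5 values, for the 3 members, miR-183-3p and the ratio of miR-182-5p to miR-183-5p. In 6 groups the highest library was set apart from the others by more than Dixon's 95% limit. Chance gives about 1 in 20 where groups are independent and values normally distributed. Here the members varied together and some groups were mostly at 0, so the 6 groups cannot be set against that share. The old normal library 1 was set apart for miR-183-5p (168 CPM) and for miR-182-5p (1814 CPM). The young normal library 2 was set apart for miR-183-5p (102.6 CPM) and for miR-182-5p (904.7 CPM). The young dwarf library 5 was set apart for miR-96-5p (0.390 CPM, 1 read) and the old dwarf library 3 for miR-183-3p (0.563 CPM, 1 read), each because the other 4 libraries had no read.

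The candidate hairpins opposite Mir182 and opposite Mir183, with 14 reads each in the authors' pooled report, were also singled out, since they lie outside the count table.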

How the results depend on the processing

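Neither member was called under any alternative run that gave it a p, so the direction and size of the differences are what moved. DESeq2 gave no p for miR-182-5p and so could not call it. Without the old normal library 1 and the young normal library 2 together, added after seeing the data, log2 fold changes turned to 0.089 (miR-183-5p) and 0.50 (miR-182-5p) in old dwarf against old normal serum, to 0.25 and 0.80 in young dwarf against young normal serum, and the log2 ratio of miR-182-5p to miR-183-5p turned to -0.0026 in old against young normal serum; called miRNAs were then 62, 0 and 0 in old dwarf against old normal, old against young normal and the difference of age effects. Scaling by library totals moved the median of all miRNAs in old against young serum to -0.42 (normal) and -0.38 (dwarf); miR-183-5p turned to -0.054 in normal and -0.14 in dwarf and miR-182-5p to -0.29 in dwarf serum, with 106, 0 and 0 called in old against young normal, old against young dwarf and the difference of age effects. Without the filter miR-182-5p was at -0.029 in old against young dwarf serum, and calls were 1 in young dwarf against young normal and 13 in the difference. DESeq2 called 6, 117 and 20 in young dwarf against young normal, old against young normal and the difference. With only the groups compared, calls were 63, 34 and 0 in old dwarf against old normal, old against young normal and old against young dwarf. The difference had 1 call with RLE and 0 with upper-quartile factors; summed precursor rows gave 1 in old against young dwarf and 0 in the difference.

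Same-numbered libraries of different groups had correlations from -0.68 to 0.81 (median -0.01, 13 of 30 over 0.1). For young normal with young dwarf they were 0.81, 0.25, 0.53, -0.22 and 0.33. Of 20 libraries, 3 matched best with their own number. No pairing by number was seen across all groups, and the main fit used none. With the replicate number as a block, miR-182-5p was at 0.12 in young dwarf against young normal and -0.0091 in old against young dwarf serum, with 0 calls in old against young dwarf serum and 0 in the difference.

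Leaving out each replicate in turn gave, for miR-183-5p, -1.50 to 0.093 in old dwarf against old normal, -1.08 to 0.25 in young dwarf against young normal, -0.76 to 1.71 in old against young normal, -0.043 to 0.34 in old against young dwarf and -1.51 to 0.95 for the difference. For miR-182-5p the ranges were -1.03 to 0.50, -0.27 to 0.80, -0.55 to 1.66, -0.067 to 0.18 and -1.61 to 0.60 in the same order, and calls ran from 51 to 143, 0 to 0, 29 to 123, 0 to 2 and 0 to 3. The log2 ratio of miR-182-5p to miR-183-5p ran from 0.39 to 0.58, 0.49 to 0.74, -0.015 to 0.21 and -0.14 to 0.049 in the pairwise comparisons, and that of miR-96-5p to miR-183-5p in old dwarf against old normal serum from -0.73 to 0.061. The turn of the genotype differences came from leaving out the old normal library 1 or the young normal library 2. The cause was not tested.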
